A study of Rattus norvegicus with 20 samples.

Results

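Gene expression in the oesophagus of rats with surgically induced reflux oesophagitis that were given no drug was compared with that of sham-operated rats. The 8 arrays were those whose labels name these groups, 4 untreated and 4 sham, of 20 arrays in the series. All animals were Wistar rats without a stated genetic change. In the operated rats reflux of stomach contents was induced by surgery, whose exact procedure the labels do not give, and the oesophagus was taken 10 days after surgery. The 12 other arrays held operated rats given low-dose or high-dose STW5 (a liquid combination of herbal extracts) or omeprazole (a proton pump inhibitor). They served here to estimate the spread within groups, to choose the probes together with the other arrays, and to give distances between arrays. The labels give no age or sex, do not say whether untreated rats received a vehicle, and give 1 array per animal. The whole excised oesophageal tissue was measured, so each array holds epithelium, muscle, connective tissue and blood cells together, and fewer cells of a type cannot be told apart from less RNA per cell.

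The rat oesophagus is lined by a stratified squamous epithelium that cornifies, and its outer muscle is largely striated. Acid and bile that reach the lining injure it, and injured epithelium and resident leukocytes release chemokines that draw neutrophils and monocytes. Many of these chemokine genes are switched on by the transcription factor NF-kB, which is held inactive by inhibitors such as the product of Nfkbia, itself a target of NF-kB, while AP-1, made of Fos and Jun proteins, acts on matrix protease genes.

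Promoters of 4 genes that were higher in the untreated arrays are shown because they carry the letters of these motifs. They are the 250 bases before the gene start in the RefSeq annotation of the rat build GRCr8, written 5' to 3' on the gene's strand, with the matching letters in capitals. For NF-kB the letters GGGA, any base and then TTTCC were searched, and for AP-1 TGANTCA, where N is any base, on both strands, and the motifs and genes were chosen after the values were seen. The first 3 carry the NF-kB letters and the last the AP-1 letters, and the minus or plus sign gives the strand.

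Cxcl1 (chr14:17479322-17479571, minus): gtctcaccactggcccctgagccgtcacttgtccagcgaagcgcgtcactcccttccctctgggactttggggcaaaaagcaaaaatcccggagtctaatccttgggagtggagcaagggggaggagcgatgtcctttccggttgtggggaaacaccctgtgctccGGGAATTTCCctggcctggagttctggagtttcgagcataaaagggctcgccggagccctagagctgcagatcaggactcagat

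Cxcl6 (chr14:17596418-17596667, minus): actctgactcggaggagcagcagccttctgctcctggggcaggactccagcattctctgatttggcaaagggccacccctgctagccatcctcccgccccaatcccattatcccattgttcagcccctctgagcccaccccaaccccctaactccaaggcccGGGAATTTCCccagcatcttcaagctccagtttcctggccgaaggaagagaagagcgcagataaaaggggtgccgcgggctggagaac

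Nfkbia (chr6:78597073-78597322, minus): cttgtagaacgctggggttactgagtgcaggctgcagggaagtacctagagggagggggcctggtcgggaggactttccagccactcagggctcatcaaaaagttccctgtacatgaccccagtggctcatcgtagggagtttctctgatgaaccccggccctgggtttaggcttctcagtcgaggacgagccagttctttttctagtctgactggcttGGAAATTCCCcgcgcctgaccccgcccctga

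Mmp13 (chr8:12782579-12782828, plus): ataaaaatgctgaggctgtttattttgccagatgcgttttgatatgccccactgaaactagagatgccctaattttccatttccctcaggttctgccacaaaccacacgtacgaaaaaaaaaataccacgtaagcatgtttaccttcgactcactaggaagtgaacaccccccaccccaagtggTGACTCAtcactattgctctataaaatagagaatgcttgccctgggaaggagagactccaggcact

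The NF-kB letters began 84 bases before the gene start in Cxcl1, 88 bases before it in Cxcl6 and 31 bases before it in Nfkbia, and the AP-1 letters 66 bases before the start of Mmp13. Of 27457 promoters in the RefSeq table, 0.317% held the NF-kB letters. The share was 1.28% among 1557 promoters of genes that rose in untreated oesophagitis, 0.372% among 1880 of genes that fell and 0.258% among 6978 of genes that were not called. TGANTCA was held by 6.36% of all promoters, by 6.29% of those of genes that rose, 6.38% of those that fell and 4.43% of those not called. These are counts of letters in a window and say nothing of whether a factor binds there.

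Every value below is a log2 signal relative to the 75th percentile of its own array, so that 0 stands for a signal equal to that percentile, and the 4 values of a group are given in the order of replicates 1 to 4. Signals of different probes depend on the probe and were not compared with each other. A difference is untreated minus sham on this log2 scale with its standard error (SE, n = 4 and 4 arrays). The size of a difference at a dim probe depends on the background correction, since with normexp and an offset of 50 units that of Tlr7 was 0.71 in place of 3.44. A gene is said to have risen or fallen where the adjusted p was under 0.05 (limma, Benjamini-Hochberg adjustment over 13636 genes). Where a group was not well above background on any of its arrays, the fold is given as a lower bound (at least). The adjusted p beside such a bound is that of the measured difference and does not test the bound.

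Between 62.7% and 66.8% of the features of the sham arrays and between 64.9% and 69.0% of those of the untreated arrays were well above background, and 0 were saturated. Sham arrays had a 75th percentile of 574 to 849 signal units, and untreated arrays one of 612 to 856. The sham arrays alone made up slide 1, and the untreated arrays shared slide 2 with low-dose STW5, so slide and operation cannot be told apart. Control RNAs added to every sample had mean relative signals of 3.80 to 4.64 on the sham arrays and 3.72 to 4.33 on the untreated arrays, ranges that overlapped. Defining markers of squamous epithelium (Krt4, Krt13, Krt5, Krt14, Tp63 and Dsg3), of striated muscle (Ckm, Acta1, Myh2, Myh4, Tnnt3 and Myl11) and of smooth muscle (Myh11, Actg2, Cnn1 and Lmod1) were well above background on all 8 arrays.

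The sham arrays did not form a tight group, and neither did the untreated arrays. The distance between 2 arrays is given here as the spread of their differences divided by the spread between repeated spots of one array, and across all probes, which are not independent replicates, as the correlation r. It was 4.54 to 8.86 within the untreated group (r = 0.9776 to 0.9853) and 4.64 to 9.17 within the sham group (r = 0.9772 to 0.9875). The nearest array in the whole series was another sham array for replicate 4 alone (replicate 3, 4.64), while it was low-dose STW5 replicate 2 for sham replicate 1 (5.73), omeprazole replicate 2 for sham replicate 2 (2.12) and low-dose STW5 replicate 4 for sham replicate 3 (3.30). Sham replicate 1 lay at 8.51, 6.22 and 9.17 from sham replicates 2, 3 and 4. Sham replicate 2 was nearer to an untreated array, replicate 2 (4.08, r = 0.989), than to sham replicates 1, 3 and 4 (8.51, 4.85 and 8.05, r = 0.978, 0.984 and 0.981). Untreated replicate 2 was likewise nearer to sham replicate 2 than to the nearest untreated array, replicate 4 (4.54). For sham replicates 1, 3 and 4 the nearest untreated array was at 6.16 to 9.96, in each case farther than the nearest sham array. Some transcripts of stomach were high in sham replicate 4. Tff1, the gene of a mucus peptide of stomach surface cells, stood at -3.35, -2.16, -3.77 and 4.58 on the sham arrays and -3.29, -0.04, -2.55 and -3.89 on the untreated arrays. Gkn1, which encodes another secreted protein of these cells, stood at -6.96, -3.11, -6.88 and 3.30 on the sham arrays and -5.77, -1.09, -3.88 and -5.39 on the untreated arrays, and Gkn2 was highest in the same array. In these genes untreated replicate 2 was the highest of its group. All results were also computed without sham replicate 2 and without both arrays numbered 2.

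In untreated oesophagitis 2036 of 13636 genes (14.9%) were higher than in sham and 2446 (17.9%) were lower. Counts within the gene lists below are to be read beside these shares. The rises were the larger changes. The median rise was 1.36 and the median fall -0.94, and 581 genes rose but 121 fell by at least 4-fold. By at least 16-fold 94 genes rose and 1 fell. Without sham replicate 2 the counts were 2123 and 2556, and without both arrays numbered 2 they were 2146 and 2626. Of the main calls 1910 rises and 2239 falls were also called without sham replicate 2. When the spread was taken from these 8 arrays alone, 1218 genes (8.93%) rose and 1048 (7.69%) fell, and 1208 and 1035 of them were also called in the fit of all groups. The groups did not overlap in 1599 genes (11.7%) with the untreated arrays above and in 1729 (12.7%) with them below.

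**Figure D1:**
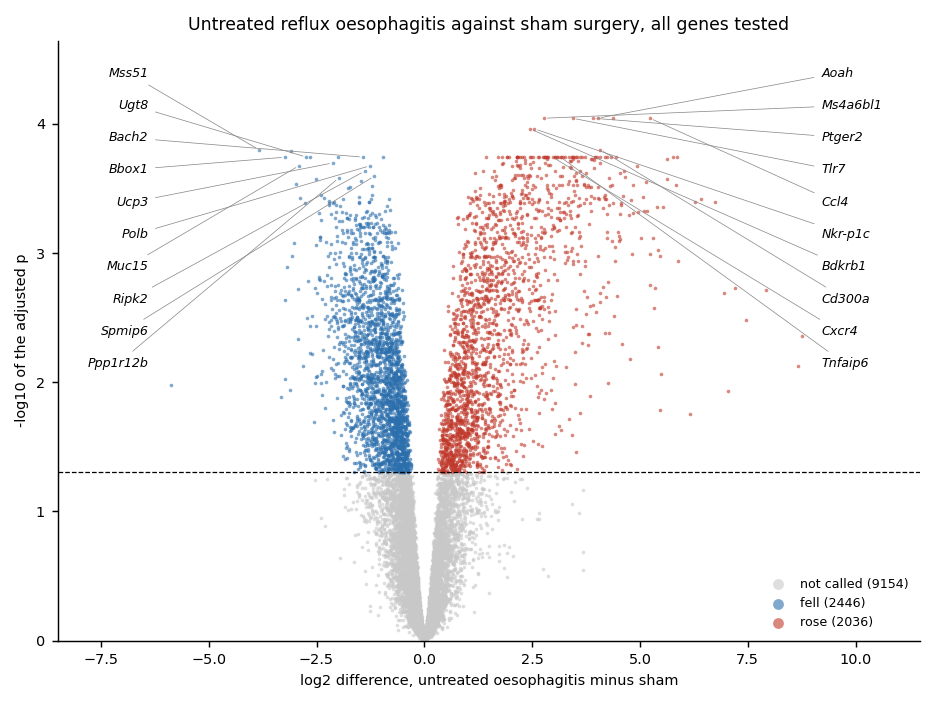
Log2 difference between untreated oesophagitis and sham surgery (x axis) against -log10 of the adjusted p (y axis) for 13636 genes, each point a gene, with the 2036 rises in red, the 2446 falls in blue and the line at an adjusted p of 0.05. The labelled genes are the 10 with the highest and 10 with the lowest moderated t statistic among those named in the text, and the red cloud reaches farther from 0 than the blue one.

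The rises with the highest moderated t statistic included genes of myeloid leukocytes and their receptors. Ccl4, a chemokine that draws monocytes and T cells, stood at -7.18, -7.41, -7.69 and -6.80 on the sham arrays and -1.05, -3.24, -2.75 and -1.12 on the untreated arrays and was at least 11.2-fold higher (adjusted p = 9.04e-05, group means of -7.27 and -2.04). No sham array was well above background for it, and the lowest untreated array, replicate 2, lay far above the highest sham array. The probe of Ccl4 covers chr10:71760265-71760324 of the rat build rn4, as the array files give it.

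Tlr7, a receptor for single-stranded RNA in endosomes, was at least 2.47-fold higher (adjusted p = 9.04e-05), with -7.39, -7.55, -7.81 and -7.89 on the sham arrays, all at background, and -3.45, -5.08, -3.53 and -4.84 on the untreated arrays. The prostaglandin E2 receptor gene Ptger2 was at least 4.48-fold higher (adjusted p = 9.04e-05). Bdkrb1, the bradykinin receptor that tissue injury induces, was at least 2.96-fold higher (adjusted p = 0.000109), at -6.53, -6.12, -6.46 and -6.54 on the sham arrays and -3.73, -4.32, -3.87 and -3.93 on the untreated arrays. Its untreated values spanned less than 1 log2 unit and its sham values lay together at background.

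Aoah, which encodes an enzyme that inactivates bacterial lipopolysaccharide, was at least 3.86-fold higher (adjusted p = 9.04e-05). It stood at -7.28, -7.67, -7.69 and -7.75 on the sham arrays and -2.25, -4.25, -3.39 and -4.41 on the untreated arrays. Cd300a, an inhibitory receptor of myeloid cells, rose by 4.08 ± 0.47 (adjusted p = 0.000158) and Cxcr4, a chemokine receptor that holds leukocytes in tissue, by 2.98 ± 0.36 (adjusted p = 0.000181). Tnfaip6, an inducible hyaluronan-binding protein, was at least 4.67-fold higher (adjusted p = 0.000181). In Cd300a, Cxcr4 and Tnfaip6 untreated replicate 2 was the lowest of its group, in Aoah untreated replicate 4, and the groups did not overlap in any of the 4 genes.

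Of the other genes at the top of this order, Ms4a6bl1, a gene of the membrane-spanning 4A family, rose by 2.77 ± 0.29. Nkr-p1c, a lectin-like receptor gene known from natural killer cells, rose by 2.55 ± 0.28. Nfkbie, an inhibitor of NF-kB, rose by 2.15 ± 0.26, Otulinl by 2.17 ± 0.26 and Ptpro, a receptor tyrosine phosphatase, by 2.26 ± 0.27. The odorant receptor gene Or1f26 rose by 3.42 ± 0.41 and has a probe at chr10:12520296-12520355 of rn4, named through its transcript accession. The adjusted p of these 6 genes lay between 9.04e-05 and 0.000181.

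**Figure D2:**
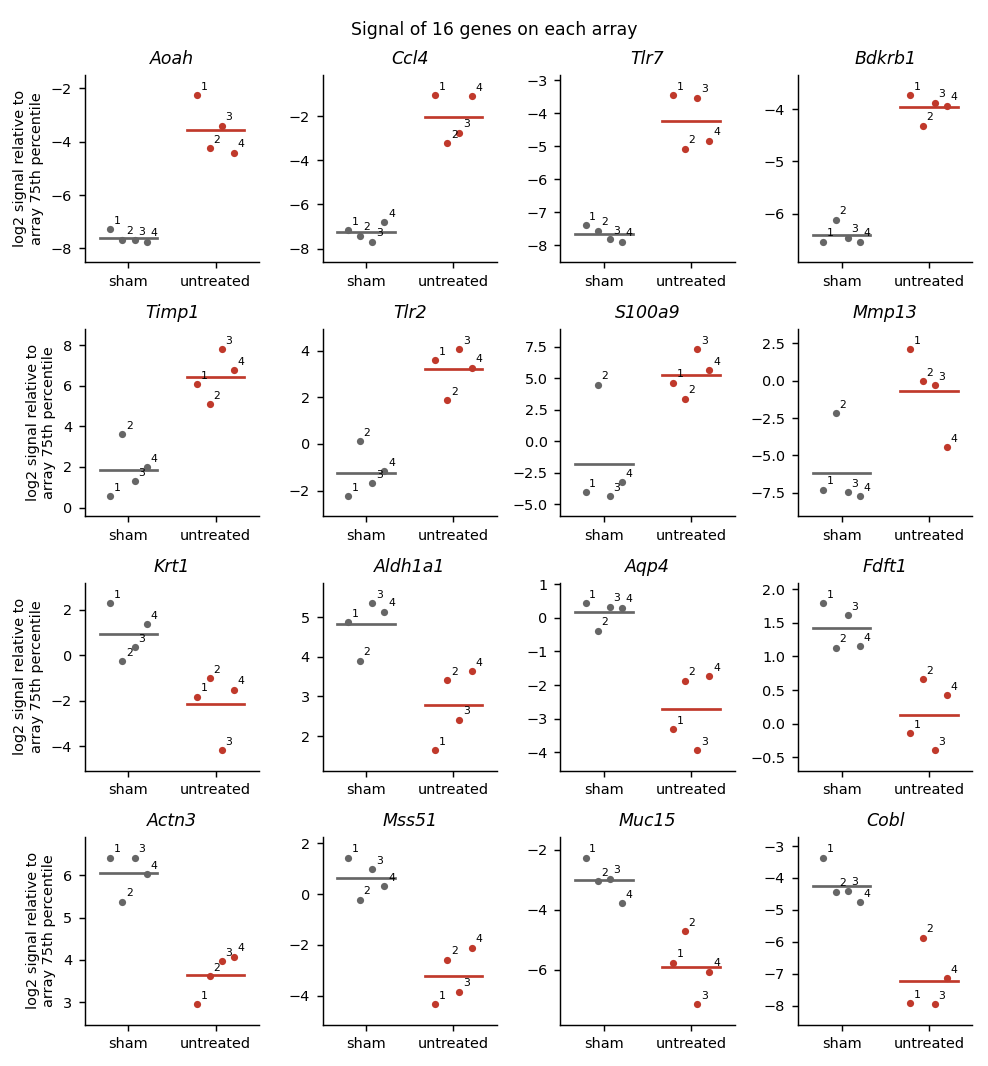
Log2 signal relative to the array's 75th percentile (y axis) of 8 genes that rose and 8 that fell, with the 4 sham arrays as grey and the 4 untreated arrays as red points, the replicate number printed beside each point, and a bar at each group mean. In Aoah, Ccl4, Tlr7 and Bdkrb1 the sham points lie together at the background level, while in S100a9 and Mmp13 sham replicate 2 lies among the untreated points.

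Detection of 96 of 13636 genes separated the groups completely, since they were well above background on all 4 untreated arrays and on no sham array, and 86 of them were called higher. The reverse held for 5 genes, all called lower. The lowest signal well above background was -5.12 to -5.78 on the sham arrays and -5.50 to -6.09 on the untreated arrays. Detection thus reached dimmer signals on untreated replicates 1, 2 and 3 than on any sham array, which limits a comparison of these 2 counts. Dio2, the enzyme that activates thyroid hormone within tissues, had the largest lower bound, at least 12-fold (adjusted p = 0.000472), from -6.99, -6.09, -7.62 and -7.70 on the sham arrays and -3.87, -3.76, 1.47 and -1.62 on the untreated arrays. Acod1, the macrophage enzyme that makes itaconate, was at least 8.93-fold higher (adjusted p = 0.000388). Thbs1, the matrix protein thrombospondin 1, was at least 8.27-fold higher (adjusted p = 0.000181). Wfdc15b, an antiprotease of the family of elafin, was at least 7.98-fold higher, and Parvg, an adhesion protein of leukocytes, at least 6.66-fold (adjusted p = 0.000241 and 0.000181).

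The 5 genes seen on every sham array and on no untreated array were Cobl, Chrm2, C1h11orf86, Kcnb2 and Sntb1. Cobl, an actin nucleator, was at least 3.07-fold lower in untreated arrays (adjusted p = 0.000291), at -3.36, -4.43, -4.40 and -4.77 on the sham arrays and -7.92, -5.87, -7.96 and -7.14 on the untreated arrays. Chrm2, a muscarinic acetylcholine receptor of smooth muscle, was at least 2.71-fold lower (adjusted p = 0.000823). For the potassium channel gene Kcnb2 the bound was 2.16-fold, for C1h11orf86 2.19-fold and for the syntrophin gene Sntb1 1.51-fold (adjusted p = 0.00907, 0.024 and 0.00125). The call of C1h11orf86 was lost without sham replicate 1 (-1.35), untreated replicate 1 (-1.64) or untreated replicate 3 (-1.50), with array weights and with dim signals raised to the background level, and with normexp background correction both it and Sntb1 were not called.

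A different set of genes did not separate the arrays cleanly, because sham replicate 2 reached the untreated range. In 539 genes it lay within the range of the untreated arrays while the other 3 sham arrays lay below that range, and in 803 genes it lay within while the others lay above. For sham replicate 1 these counts were 173 and 190, for replicate 3 58 and 41, and for replicate 4 287 and 811. The 6 genes of the first kind with the largest difference without sham replicate 2 in measured signal were the calprotectin genes S100a9 and S100a8, the tenascin gene Tnn, the collagenase and gelatinase genes Mmp13 and Mmp9, and the neutrophil chemokine gene Cxcl6. The last 4 of these were not well above background on any of the other 3 sham arrays, so that their order has no meaning and without sham replicate 2 only a lower bound of the fold can be given. S100a9 stood at -4.07, 4.49, -4.35 and -3.25 on the sham arrays and 4.66, 3.38, 7.32 and 5.65 on the untreated arrays, a rise of 7.05 ± 1.95 (adjusted p = 0.0117) that was 9.14 without sham replicate 2. Mmp13 stood at -7.30, -2.17, -7.46 and -7.71 on the sham arrays and 2.11, -0.03, -0.31 and -4.45 on the untreated arrays, a rise of 5.49 ± 1.44 (adjusted p = 0.00859) that was at least 27.3-fold without it. The bounds were 58.9-fold for Tnn, 18.8-fold for Mmp9 and 9.74-fold for Cxcl6. In all 6 genes sham replicate 2 lay within the range of the untreated arrays, which is how they were chosen. S100a8 (6.15) was not called without sham replicate 3 (5.23), sham replicate 4 (5.30) or untreated replicate 3 (5.54), and Tnn (5.45) not without sham replicate 1 (5.00), sham replicate 3 (4.64) or untreated replicate 1 (4.59) and not in the fit of the 2 groups alone.

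Neutrophil-attracting chemokines and the genes of neutrophil traffic made up the list with the largest median among pathways. Of 11 measured members 9 rose and 0 fell, against 14.9% of all genes that rose, and the median difference was 4.26, against -0.09 for all genes. Cxcl1, whose promoter is printed above, stood at -7.26, -1.85, -7.71 and -5.39 on the sham arrays and 0.37, -0.37, 2.80 and 2.83 on the untreated arrays and rose by 6.96 ± 1.44 (adjusted p = 0.00205), and Cxcl6 at -7.32, -2.79, -7.74 and -7.80 on the sham arrays and -1.16, -2.84, -3.13 and -1.50 on the untreated arrays, a rise of 4.26 ± 1.15 (adjusted p = 0.0102). Cxcl3 and Cxcl2 had the largest differences of all genes tested in measured signal, 8.76 ± 2.05 and 8.65 ± 2.22 (adjusted p = 0.00438 and 0.00745). Such a rank depends on the background correction where probes are dim. In each of the 4 genes sham replicate 2 was the highest sham array. Csf3, the growth factor of granulocytes, stood at -1.32, -0.50, -2.16 and -2.49 on the sham arrays and 1.13, 0.24, 2.49 and 2.89 on the untreated arrays and rose by 3.31 ± 0.61 (adjusted p = 0.000985). Csf3r, its receptor, rose by 5.23 ± 1.06 (adjusted p = 0.00178) from -7.35, -3.23, -7.78 and -5.80 on the sham arrays, of which replicate 2 was the highest. Selplg, the leukocyte ligand of P-selectin, rose by 2.25 ± 0.41 (adjusted p = 0.000866), and Pf4, the platelet chemokine, by 3.11 ± 0.54 (adjusted p = 0.000668), at -0.12, 1.58, 0.39 and 1.93 on the sham arrays and 5.50, 3.46, 4.12 and 3.14 on the untreated arrays.

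Among the chemokines and receptors of monocytes and eosinophils 13 of 17 measured genes rose and 0 fell (median 3.70), and 15 rose without sham replicate 2. Ccl11, the eosinophil chemokine eotaxin, stood at -4.76, -1.60, -3.01 and -2.21 on the sham arrays and 1.81, 2.64, 4.83 and 1.62 on the untreated arrays, with sham replicate 1 the lowest and untreated replicate 3 the highest array. It rose by 5.62 ± 0.75 (adjusted p = 0.000186). The chemokine receptor gene Ccr1 rose by 3.76 ± 0.53 (adjusted p = 0.000241).

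Markers of leukocytes rose across most types. All 22 measured markers of macrophages and monocytes rose, among them Mpeg1, the pore-forming protein perforin-2, at 3.96 ± 0.49, and Spi1, the myeloid transcription factor PU.1, at 3.44 ± 0.43. Of 17 measured neutrophil markers 14 rose (median 4.77). Fcnb, a lectin of the complement pathway, stood at -6.73, -2.84, -5.89 and -4.59 on the sham arrays and 0.81, -0.71, 3.02 and 1.94 on the untreated arrays. Pglyrp1, which binds bacterial peptidoglycan, rose by 5.03 ± 0.89, and Retnlg, a resistin-like gene of neutrophils, by 5.46 ± 1.02. Sham replicate 2 had the highest of the sham values in Fcnb and Pglyrp1, and sham replicate 4 the highest in Retnlg, at -5.67, -0.99, -4.50 and -0.78 on the sham arrays.

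Of 18 measured markers of T and NK cells 12 rose, and 7 rose without sham replicate 1, 7 without untreated replicate 1 and 6 in the fit of the 2 groups alone. Cd6, a T cell co-receptor, rose by 2.98 ± 0.44 (adjusted p = 0.000296), or by 1.55 as the mean of its probes. Cd8b, the beta chain of CD8, was at least 2.51-fold higher (adjusted p = 0.000823), at -2.24, -4.30, -5.58 and -4.66 on the untreated arrays, where replicate 1 was the highest. Of 13 measured markers of mast cells and eosinophils 3 rose and 10 were not called, beside 14.9% of all genes that rose. The rises were of the mast cell tryptase gene Tpsab1, the eosinophil chemokine receptor gene Ccr3 and Siglec5, which was at least 3.27-fold higher (adjusted p = 0.000723). The mast cell genes Cpa3 (0.34), Cma1 (-0.31) and Kit (0.64) were not called (adjusted p = 0.769, 0.769 and 0.182). Of 6 measured B and plasma cell genes 1 rose and 2 fell. Tnfrsf17, the receptor BCMA of plasma cells, fell (-2.43 ± 0.48, adjusted p = 0.00153), as did Prdm1 (-1.31 ± 0.24, adjusted p = 0.000912), while Pou2af1, a co-activator of B cells, rose by 2.88 ± 0.63 (adjusted p = 0.00286). Prdm1 is also expressed in cornifying epithelium. Ccr3 was not called in the fit of the 2 groups alone, with normexp or with dim signals raised, and Pou2af1 not in the fit of the 2 groups alone without sham replicate 2.

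Genes that present antigen to T cells were among the rises. Of 15 measured members 12 rose and 0 fell (median 2.02), 13 rose without sham replicate 2 and 8 in the fit of the 2 groups alone. RT1-DMb and RT1-DMa, the rat genes of the chaperone that loads peptides on class II molecules, rose by 2.75 ± 0.37 and 2.38 ± 0.34 (adjusted p = 0.000181 and 0.000254). RT1-DMb stood at -1.65, -0.63, -1.40 and -0.62 on the sham arrays and 2.33, 0.78, 2.12 and 1.46 on the untreated arrays, and its groups did not overlap. Ctss, the protease that prepares class II molecules for loading, rose by 3.12 ± 0.52, and RT1-Da, a class II chain, by 2.29 ± 0.41 (adjusted p = 0.000534 and 0.000762).

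Most measured genes that sense microbes and damage were among the rises. Of 20 measured genes of pattern recognition and the inflammasome 13 rose, 0 fell and 7 were not called (median 1.39). Tlr2, the receptor for bacterial lipoproteins, stood at -2.23, 0.12, -1.68 and -1.16 on the sham arrays and 3.59, 1.87, 4.06 and 3.27 on the untreated arrays and rose by 4.43 ± 0.58 (adjusted p = 0.000181). Cd14, the co-receptor for lipopolysaccharide, rose by 3.87 ± 0.52 (adjusted p = 0.000188). Nlrp3, the sensor of an inflammasome, was at least 3.42-fold higher (adjusted p = 0.000181), at -3.87, -5.09, -2.79 and -3.25 on the untreated arrays and at background in sham.

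The NF-kB and TNF genes followed. Of 13 measured members 11 rose and 0 fell. Nfkbia, whose promoter is printed above, stood at 2.12, 2.18, 2.04 and 1.88 on the sham arrays and 3.57, 2.92, 4.53 and 4.09 on the untreated arrays, with little spread among the sham arrays. It rose by 1.72 ± 0.26 (adjusted p = 0.000346). The TNF receptor gene Tnfrsf1b rose by 4.18 ± 0.64 and Tnf by 4.24 ± 0.70 (adjusted p = 0.000356 and 0.000498).

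Immediate early genes, which answer a stimulus without new protein synthesis, had 9 rises and 1 fall among 21 measured (median 0.62), with 5 rises in the fit of the 2 groups alone. Egr2 stood at -5.46, -4.94, -5.76 and -5.18 on the sham arrays and -3.31, -4.13, -2.96 and -3.63 on the untreated arrays and rose by 1.83 ± 0.25 (adjusted p = 0.000201). Dusp6, a phosphatase that dampens ERK, rose by 1.59 ± 0.24 and Fos, a subunit of AP-1, by 2.47 ± 0.52 (adjusted p = 0.00036 and 0.00234). The fall was of Klf4, a factor of differentiated squamous epithelium (-0.98 ± 0.23, adjusted p = 0.00412), which was not called in the fit of the 2 groups alone without sham replicate 2.

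Of 15 measured genes of the interleukin 6 family and its STAT3 feedback 9 rose and 1, the receptor gene Lifr, fell (-0.78). The fall was not called without sham replicate 3 (-0.75) or 4 (-0.66) or untreated replicate 2 (-0.72) or 3 (-0.69). Osm, the cytokine oncostatin M, stood at -6.02, -5.54, -6.48 and -5.82 on the sham arrays and -2.92, -4.35, -2.46 and -2.57 on the untreated arrays and rose by 2.89 ± 0.52 (adjusted p = 0.000875), and its receptor gene Osmr was at least 1.99-fold higher (adjusted p = 0.000698). Socs3, the feedback inhibitor of STAT3 signalling, rose by 3.33 ± 0.62, and Il6r, the interleukin 6 receptor gene, by 1.46 ± 0.25 (adjusted p = 0.00108 and 0.000625). With normexp background correction 5 members rose, Osmr was not among them and Lifr was not called.

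The interleukin 1 family moved both ways, with 6 of 14 measured genes higher and 3 lower. The receptor gene Il1r1 rose by 2.05 ± 0.31 and Il18, which is stored in epithelium, by 1.58 ± 0.26 (adjusted p = 0.000327 and 0.000479). Il1rl1, the receptor of the alarmin interleukin 33, stood at -7.19, -3.74, -7.32 and -6.06 on the sham arrays and -0.16, -1.62, -1.43 and 0.60 on the untreated arrays, a rise of 5.42 ± 0.99 (adjusted p = 0.00094), or of 3.08 as the mean of its probes. Il1f10, an epithelial member of the family, went the other way, at -2.75, -3.40, -2.51 and -3.34 on the sham arrays and -6.09, -3.90, -5.16 and -6.67 on the untreated arrays, a difference of -2.45 ± 0.49 (adjusted p = 0.00159). Il36b and Il36rn, genes of stratified epithelium, fell as well (-1.60 and -1.43), but neither did so in the fit of the 2 groups alone, where 5 members rose and 1 fell. Il36rn was also not called without sham replicate 1 (-0.88) or untreated replicate 1 (-1.47), 3 (-1.11) or 4 (-1.38).

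Interferon response genes rose at 11 of 26 measured members (median 1.14), 7 of them in the fit of the 2 groups alone, and 1, Oas1b, fell. The call of Oas1b (-0.38) was lost without sham replicate 1 (-0.34) or 3 (-0.36), with quantile scaling and in the fit of the 2 groups alone. Oasl was at least 2.99-fold higher (adjusted p = 0.000654). Its relatives Oas1k and Oas1a, which like it belong to the antiviral oligoadenylate synthetases, rose by 4.02 ± 0.75 and 3.78 ± 0.79 (adjusted p = 0.00106 and 0.00219), and such close relatives may share signal on an array. Oas1a stood at -5.13, -2.00, -4.93 and -3.18 on the sham arrays and 0.08, -1.76, 1.66 and -0.09 on the untreated arrays, and untreated replicate 2 exceeded sham replicate 2 by less than 1 log2 unit. Psmb9, a subunit of the immunoproteasome, rose by 1.44 ± 0.30 (adjusted p = 0.00221).

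Subunits of the phagocyte NADPH oxidase were among the rises. Of 28 measured genes of oxidant production and the Nrf2 response 10 rose and 4 fell. The first included the membrane subunits Cybb (3.51 ± 0.51) and Cyba (2.31 ± 0.31) and the cytosolic subunit Ncf4 (3.41 ± 0.45), with adjusted p = 0.000278, 0.000181 and 0.000181. Those that fell were Cat, the gene of catalase, the epithelial oxidase genes Nox1 and Duox2, and Gclc, which encodes the first enzyme of glutathione synthesis. The epithelial oxidase gene, Duox1, was not called (-0.76, adjusted p = 0.151). Cyba stood at 3.43, 4.30, 3.73 and 4.15 on the sham arrays and 7.02, 5.43, 6.22 and 6.16 on the untreated arrays. Gclc (-0.54) was not called without sham replicate 1 (-0.52) or 3 (-0.49) or untreated replicate 1 (-0.46) or 2 (-0.50), nor in the fit of the 2 groups alone.

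Enzymes of arginine use included 6 rises among 16 measured genes and 1 fall, of the spermine synthase gene Sms, which was not called in the fit of the 2 groups alone. Arg1, which splits arginine to ornithine, stood at -1.15, 0.02, -1.50 and -1.62 on the sham arrays and 3.14, 1.26, 2.58 and 3.82 on the untreated arrays and rose by 3.76 ± 0.59 (adjusted p = 0.00038). Nos2, the inducible nitric oxide synthase, rose by 2.73 ± 0.44 (adjusted p = 0.000476), and Nos3, the endothelial one, by 1.87 ± 0.29 (adjusted p = 0.000394). The arginine transporter gene Slc7a2 was at least 3.13-fold higher (adjusted p = 0.000193). These 4 genes also rose without sham replicate 2.

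Eicosanoid genes moved in both directions, with synthases and receptors among the rises and among the falls. Of 26 measured members 10 rose and 5 fell (6 and 2 in the fit of the 2 groups alone). Prostaglandin E synthase (Ptges) rose by 2.04 ± 0.42 and thromboxane synthase (Tbxas1) by 2.37 ± 0.35 (adjusted p = 0.00197 and 0.000281). Alox5ap, which feeds arachidonic acid to leukotriene synthesis, stood at -3.88, -2.43, -2.96 and -2.07 on the sham arrays and -0.98, -1.49, 1.39 and -0.16 on the untreated arrays and rose by 2.52 ± 0.57 (adjusted p = 0.00336). The genes that fell were Hpgd, which encodes the enzyme that degrades prostaglandins, Alox12, Ptger3, Ptgds and Ltc4s. Of these falls Hpgd, Ptgds and Ltc4s were not called in the fit of the 2 groups alone, and Ptger3 not with dim signals raised. Ptgds (-1.74) was not called without sham replicate 1 (-1.35) and was -1.11 without untreated replicate 3, and Ltc4s (-1.77) was not called without untreated replicate 1 (-1.26) or 3 (-1.54).

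Metal and heme iron handling showed 14 rises and 1 fall among 18 measured genes (median 1.56), with 9 rises in the fit of the 2 groups alone. Slc11a1, the metal transporter of phagosomes, stood at -4.89, -4.26, -5.32 and -3.72 on the sham arrays and 0.97, -1.75, -0.08 and -0.62 on the untreated arrays, and rose by 4.18 ± 0.53 (adjusted p = 0.000181). The zinc and iron importer gene Slc39a8 rose by 2.32 ± 0.34 (adjusted p = 0.000263). Ftl1, the light chain of ferritin, rose by 0.90 ± 0.15 (adjusted p = 0.000541), a small change with little spread, from 6.95, 7.04, 7.16 and 7.16 to 8.05, 7.75, 7.80 and 8.33.

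**Figure D3:**
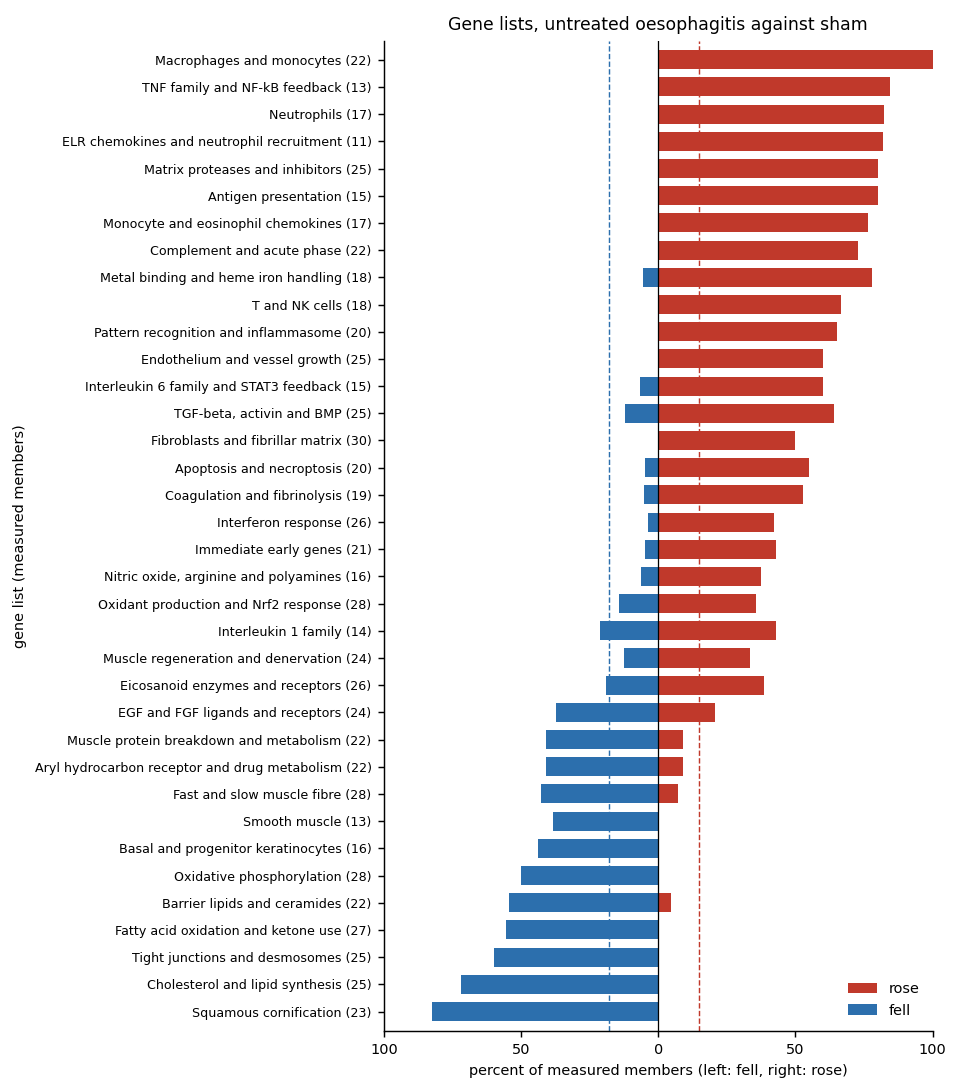
Share of measured members of the 36 gene lists with the largest shares called, of those with at least 10 measured members, that rose (red, to the right) or fell (blue, to the left), in percent, with the number of measured members in brackets and dashed lines at the shares of all genes, 14.9% and 17.9%. Lists of leukocytes, proteases and complement lie far to the right of the line, and lists of cornification, cholesterol synthesis and fatty acid oxidation far to the left.

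Acute phase, clotting and matrix genes rose beside the leukocyte genes. Of 22 measured complement and acute phase genes 16 rose and 0 fell. The protease inhibitor gene A2m stood at -3.47, -0.86, -1.75 and -1.89 on the sham arrays and 1.89, 1.24, 2.79 and 1.86 on the untreated arrays, and Hp, the gene of the hemoglobin scavenger haptoglobin, at -3.77, -1.99, -5.72 and -2.21 on the sham arrays and 2.12, -0.09, 4.27 and 2.53 on the untreated arrays, with no overlap of groups in either. They rose by 3.93 ± 0.53 and 5.63 ± 0.82 (adjusted p = 0.000192 and 0.000266). Of 19 measured genes of coagulation and fibrinolysis 10 rose, 6 of them in the fit of the 2 groups alone, and Serpinb2, which was not called in the fit of the 2 groups alone, fell. Plaur, the urokinase receptor gene, rose by 4.41 ± 0.83 and the protease inhibitor gene Tfpi2 by 3.27 ± 0.60 (adjusted p = 0.00115 and 0.00098). For Tfpi2, at -7.22, -5.51, -7.51 and -7.68 on the sham arrays and -3.36, -5.47, -2.53 and -3.50 on the untreated arrays, sham replicate 2 and untreated replicate 2 were level.

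Of 25 measured matrix proteases and inhibitors 20 rose and 0 fell (median 2.01). Timp1, an inhibitor of metalloproteinases, stood at 0.58, 3.60, 1.30 and 2.00 on the sham arrays and 6.06, 5.08, 7.79 and 6.75 on the untreated arrays, so that sham replicate 2 was the highest sham array and still below every untreated array. It rose by 4.55 ± 0.72 (adjusted p = 0.000406). Adamts9, a protease of versican, rose by 1.66 ± 0.28, and the lysosomal protease gene Ctsb by 1.06 ± 0.17 (adjusted p = 0.00052 and 0.000493). Of 30 measured genes of fibroblasts and fibrillar matrix 15 rose and 0 fell, but 9 rose without sham replicate 1, 9 without untreated replicate 1 and 7 in the fit of the 2 groups alone. The proteoglycan gene Vcan and Lox, which crosslinks collagen, rose by 3.04 ± 0.43 and 2.85 ± 0.45, and the tenascin gene Tnc rose too. The main fibrillar collagen genes were not among the rises, with Col1a1 at 0.86 ± 0.42 (adjusted p = 0.126) and Col3a1 at 0.19 ± 0.28 (adjusted p = 0.643).

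The TGF-beta, activin and BMP list had 16 rises and 3 falls among 25 measured genes, and 10 rises without sham replicate 1. The ligand gene Tgfb1 stood at -4.06, -2.25, -3.26 and -3.07 on the sham arrays and -0.04, -1.49, -0.60 and -1.46 on the untreated arrays and rose by 2.27 ± 0.38 (adjusted p = 0.000517). The matricellular targets Ccn2 and Tgfbi rose by 1.54 ± 0.30 and 1.88 ± 0.37 (adjusted p = 0.00141 and 0.00158). Bmp7, Chrdl1 and Tgfb3 fell, but none of the 3 did so in the fit of the 2 groups alone. Of these 3 falls 1 was called without sham replicate 3 or 4 or untreated replicate 1 or 4, and 0 without untreated replicate 3. Of 25 measured genes of endothelium and vessel growth 15 rose and 0 fell. Icam1, on which leukocytes adhere, stood at -1.65, -0.19, -0.78 and -0.48 on the sham arrays and 2.12, 1.13, 2.34 and 1.07 on the untreated arrays and rose by 2.44 ± 0.32 (adjusted p = 0.000181). Sele, the adhesion molecule of activated endothelium, rose by 3.46 ± 0.50, the VEGF receptor gene Flt1 by 1.93 ± 0.37 and the junction gene Esam by 1.65 ± 0.31 (adjusted p = 0.000254, 0.00131 and 0.00113).

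Genes of pain and neuropeptide signalling moved in both directions, 5 up and 4 down of 21 measured, with 8 rises without both arrays numbered 2. Of all genes 14.9% rose and 17.9% fell, and nothing is read from these counts. Beside Bdkrb1, the ion channel genes Trpv2 and Trpv4 rose by 2.79 ± 0.37 and 1.53 ± 0.31 (adjusted p = 0.000181 and 0.00178). Trpv2, which macrophages also express, stood at -2.18, -0.41, -1.89 and -1.77 on the sham arrays and 2.05, 0.70, 0.94 and 1.20 on the untreated arrays. Tacr2, the neurokinin receptor of smooth muscle, fell (-2.62 ± 0.58, adjusted p = 0.00305), at -0.52, -1.28, -0.23 and -0.60 on the sham arrays and -4.21, -2.45, -4.20 and -2.22 on the untreated arrays, while Tacr1, the substance P receptor gene, rose. Trpv1, the capsaicin receptor gene, was among the falls (-1.65) but was not called without sham replicate 1 (-1.42) or untreated replicate 3 (-1.13). Neither Tacr1 nor Trpv1 was called in the fit of the 2 groups alone. Of 18 measured genes of neurons and glia of the wall 4 fell and 1 rose, and 1 fell without untreated replicate 3. S100b, a marker of enteric glia, stood at 0.15, -0.98, 0.14 and 0.95 on the sham arrays and -2.86, -1.89, -2.07 and -1.60 on the untreated arrays and fell (-2.17 ± 0.43, adjusted p = 0.00157).

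In the epithelium, genes of the upper, cornifying layers were lower. Of 23 measured cornification genes 19 fell and 0 rose (median -1.41), against 17.9% of all genes that fell. The count was 9 without sham replicate 1, 10 without untreated replicate 3 and 5 in the fit of the 2 groups alone, and 17 without sham replicate 2. Krt1, the keratin of suprabasal cells, stood at 2.27, -0.25, 0.35 and 1.37 on the sham arrays and -1.83, -1.01, -4.16 and -1.51 on the untreated arrays and fell (-3.06 ± 0.57, adjusted p = 0.00106). Krt78 stood at 6.86, 6.07, 6.46 and 5.81 on the sham arrays and at 4.29, 5.59 and 4.88 on untreated replicates 1, 2 and 4, with untreated replicate 3 the lowest and untreated replicate 2 close to the sham range. It fell (-1.84 ± 0.40, adjusted p = 0.0027), as did Casp14, the caspase of cornifying cells (-2.33 ± 0.47), and the envelope protein gene Evpl (-1.62 ± 0.37), with adjusted p = 0.00165 and 0.00357. The 4 genes were called in the fit of the 2 groups alone, but Krt78, Casp14 and Evpl not when sham replicate 2 was left out of it.

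Genes of the lipids that seal the cornified layer were also among the falls. Of 22 measured genes of barrier lipids and ceramides 12 fell and 1, the acid ceramidase gene Asah1, rose, and 8 fell in the fit of the 2 groups alone. Elovl6, which lengthens palmitate, stood at 2.36, 1.85, 1.97 and 1.68 on the sham arrays and 0.10, 1.00, -1.19 and 0.61 on the untreated arrays and fell (-1.84 ± 0.33, adjusted p = 0.000833). Elovl4, which makes the very long chains of skin-type ceramides, fell (-1.66 ± 0.34), as did the epidermal lipase gene Lipk (-1.82 ± 0.36) and Fa2h, the fatty acid hydroxylase gene (-1.06 ± 0.22), with adjusted p = 0.00187, 0.00144 and 0.00231. Fa2h was not called in the fit of the 2 groups alone without sham replicate 2, and Asah1 not in the fit of the 2 groups alone.

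Cholesterol and lipid synthesis went the same way, with 18 of 25 measured genes lower and 0 higher (median -0.92). The count was 15 without sham replicate 2 and 9 in the fit of the 2 groups alone. Fdft1, squalene synthase, stood at 1.79, 1.13, 1.61 and 1.15 on the sham arrays and -0.14, 0.66, -0.39 and 0.42 on the untreated arrays, and its groups did not overlap. It fell (-1.28 ± 0.20, adjusted p = 0.000399). Srebf1, the transcription factor of fatty acid synthesis, fell (-1.03 ± 0.18), as did Dhcr7, the last enzyme of cholesterol synthesis (-1.39 ± 0.25), with adjusted p = 0.000664 and 0.000922.

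Of 25 measured genes of tight junctions and desmosomes 15 fell and 0 rose, 9 of them in the fit of the 2 groups alone. The junction scaffold gene Tjp3 stood at 0.98, 0.25, 0.75 and 0.16 on the sham arrays and -0.89, -0.33, -1.72 and -0.41 on the untreated arrays and fell (-1.37 ± 0.26, adjusted p = 0.00108), as did Marveld2, the gene of tricellulin (-1.24 ± 0.24, adjusted p = 0.0012). Of 16 measured genes of basal keratinocytes 7 fell and 0 rose, 3 of them in the fit of the 2 groups alone. Klf5, a transcription factor of the proliferating layer, fell (-1.12 ± 0.24), as did Col17a1, a hemidesmosome collagen (-1.21 ± 0.27), with adjusted p = 0.00229 and 0.00343. Klf5 was not called in the fit of the 2 groups alone without sham replicate 2. The keratin genes of the basal layer were not called, with Krt5 at -0.55 ± 0.41 (adjusted p = 0.323) and Krt14 at 0.34 ± 0.59 (adjusted p = 0.697).

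Receptors and ligands of epithelial growth factors moved in both directions. Of 24 measured EGF and FGF genes 9 fell and 5 rose, but 3 to 5 fell without sham replicate 1 or 3 or without untreated replicate 1, 3 or 4, and 3 fell in the fit of the 2 groups alone. The rises numbered 3 without sham replicate 1 or 3 or untreated replicate 1, and 2 without untreated replicate 3 and in the fit of the 2 groups alone. Fgfr2, the receptor of epithelial FGFs, stood at 1.18, 1.44, 1.36 and 1.05 on the sham arrays and -0.15, 0.78, -0.35 and 0.12 on the untreated arrays and fell (-1.16 ± 0.21, adjusted p = 0.000985), or stood at -0.62 as the mean of its probes. Egf fell (-1.91 ± 0.40), as did the receptor gene Erbb2 (-1.11 ± 0.25), with adjusted p = 0.00209 and 0.00325, the latter not called in the fit of the 2 groups alone without sham replicate 2. Hgf, which stroma makes for epithelium, was at least 1.89-fold higher (adjusted p = 0.000181), although it was not called with normexp background correction. Of 21 measured genes of wound-edge keratinocytes and alarmins 7 rose and 2 fell (0 in the fit of the 2 groups alone or without sham replicate 1, untreated replicate 1 or untreated replicate 4, and 1 without untreated replicate 3), and the rises included Plaur, which leukocytes and stroma also express.

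Enzymes that handle retinoids and foreign compounds had more falls than rises, as had all genes (17.9% and 14.9%). Of 22 measured genes of the aryl hydrocarbon receptor and drug metabolism 9 fell and 2 rose, with 4 falls in the fit of the 2 groups alone. Ces1e, a carboxylesterase, stood at 1.82, -0.33, 1.30 and 0.84 on the sham arrays and -1.46, -1.59, -4.04 and -0.99 on the untreated arrays and fell (-2.93 ± 0.60, adjusted p = 0.00189). Cyp3a9 fell (-1.43 ± 0.31, adjusted p = 0.00256), a call lost in the fit of the 2 groups alone without sham replicate 2, and Cyp1b1 rose by 1.83 ± 0.36 and Fmo5 by 2.26 ± 0.44 (adjusted p = 0.00137 and 0.00144). Of 18 measured retinoid genes 6 fell and 3 rose. Aldh1a1, which makes retinoic acid, stood at 4.88, 3.91, 5.35 and 5.14 on the sham arrays and 1.64, 3.41, 2.41 and 3.64 on the untreated arrays and fell (-2.05 ± 0.45, adjusted p = 0.00291). Cyp26b1, which degrades retinoic acid, fell (-1.30 ± 0.28, adjusted p = 0.00282), and the receptor gene Rara rose by 1.43 ± 0.29 (adjusted p = 0.00163). In the fit of the 2 groups alone 2 retinoid genes fell and 2 rose. Without sham replicate 2 there were 4 falls and 4 rises, and without both arrays numbered 2 there were 5 rises.

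Columnar epithelium is a cell type that can replace the squamous lining in long-standing reflux. Of 24 listed genes 13 were measured and 2 rose, Dmbt1 and Cdh17, with 4 rises without sham replicate 2. The share that rose was near that of all genes (14.9%), and 11 were not called. Among these was Cdx1 (-0.38, adjusted p = 0.138), and the intestinal genes Cdx2, Muc2 and Vil1 were not measured. Dmbt1, a secreted defence protein of mucosae, stood at -4.68, -3.57, -3.81 and -4.22 on the sham arrays and -2.33, -2.78, -2.03 and -2.47 on the untreated arrays and rose by 1.67 ± 0.30 (adjusted p = 0.000795). Cdh17, an intestinal cadherin, was at least 2.08-fold higher (adjusted p = 0.00282), a call lost when dim signals were raised to the background level. Reg3b, an antimicrobial lectin of the gut, was at -7.36, -2.47, -7.79 and -7.84 on the sham arrays and between -4.84 and -3.04 on the untreated arrays, and its difference of 2.61 ± 1.23 was not called (adjusted p = 0.114). Without sham replicate 2 it was called (adjusted p = 0.0106), at least 3.21-fold higher, with the other 3 sham arrays not above background. Of 17 listed genes of gastric mucosa 8 were measured, and 0 were called (limma), in either direction, at an adjusted p under 0.05 and 0 at an unadjusted p under 0.05. The stomach transcription factor gene Barx1 was at -5.11, -5.06, -5.24 and -1.67 on the sham arrays and -6.97, -3.64, -4.24 and -5.23 on the untreated arrays, so that sham replicate 4, the array with the high Tff1, was the highest array here too. It was not the highest in Pgc, Muc6 or Gast.

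Few markers of other tissue that the piece could hold were called. Of 9 measured adipocyte markers 0 rose and 1, Cidea, fell (-0.91 ± 0.26, adjusted p = 0.0139), and it was not called in the fit of the 2 groups alone. Without sham replicate 4, which had the highest Fabp4 of the sham arrays, 2 adipocyte markers rose. Of 8 measured markers of erythrocytes and platelets Pf4 alone rose, and of 7 measured markers of thyroid, thymus and airway 1 rose, the surfactant gene Sftpc, by 2.37 ± 0.58 (adjusted p = 0.00542), with 2 without sham replicate 2. Of 8 measured genes of mucosal glands and mucins the lysozyme gene Lyz2, which macrophages also express, rose by 2.43 ± 0.53 (adjusted p = 0.00265), and Muc15 and the amylase gene Amy1 fell. Amy1 stood at -2.46, -5.00, -2.32 and -2.69 on the sham arrays and -7.22, -5.25, -6.38 and -4.88 on the untreated arrays, and sham replicate 2 and the untreated arrays overlapped.

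Transport of acid, bicarbonate and water had 5 falls and 2 rises among 24 measured genes, near or below the shares of all genes (17.9% and 14.9%). Aqp4, a water channel, stood at 0.43, -0.39, 0.33 and 0.30 on the sham arrays and -3.32, -1.87, -3.93 and -1.74 on the untreated arrays, with no overlap, and fell (-2.88 ± 0.45, adjusted p = 0.000373). Slc9a2, a sodium and proton exchanger, fell (-1.82 ± 0.36), as did Slc26a9, an epithelial chloride transporter (-1.04 ± 0.22), with adjusted p = 0.00163 and 0.00229. Scnn1a, the alpha subunit of the epithelial sodium channel, fell (-1.16 ± 0.27, adjusted p = 0.00409), which was not called in the fit of the 2 groups alone without sham replicate 2. Aqp4 is also known from striated muscle fibres. There were 8 falls without untreated replicate 2, and the 2 rises were both lost without sham replicate 1, sham replicate 3 or untreated replicate 3.

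**Figure D4:**
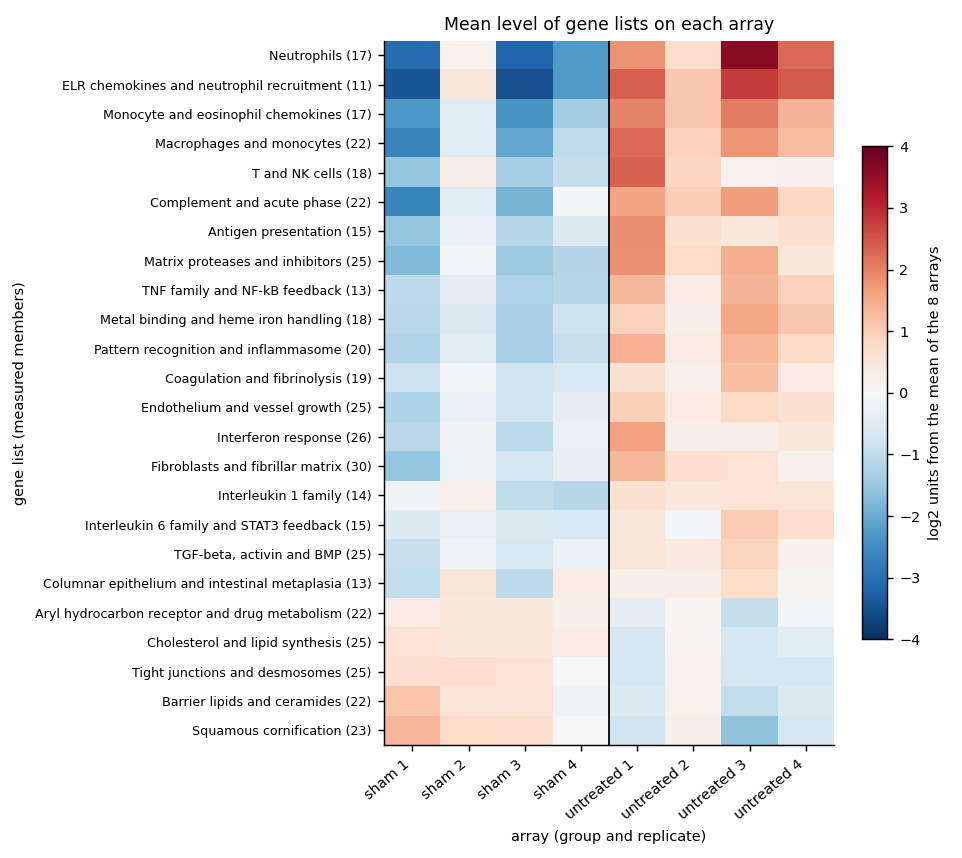
Mean level of the measured members of the 24 gene lists (rows) with the largest absolute median difference on each of the 8 arrays (columns), after each gene was centred on its mean over these arrays, in log2 units shown as colour from blue (low) to red (high). Sham replicate 2 is redder than the other sham arrays in the lists of leukocytes and chemokines, and in most of the lists that rose untreated replicate 2 is paler than untreated replicate 1.

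Muscle genes fell unevenly. Of 28 measured genes of fast and slow muscle fibres 12 fell and 2, Tnnc1 and Tnnt1, rose. The falls numbered 5 without sham replicate 1, 7 without sham replicate 3, 7 without sham replicate 4, 4 without untreated replicate 1 and 6 in the fit of the 2 groups alone. The rise of Tnnc1 (1.76) was not called without sham replicate 3 (1.48) or untreated replicate 3 (1.41), that of Tnnt1 (1.43) without sham replicate 1 (1.35), 2 (1.26) or 3 (1.13) or untreated replicate 2 (1.22) or 3 (1.19), and neither in the fit of the 2 groups alone. Actn3, the actinin of fast fibres, stood at 6.42, 5.38, 6.42 and 6.03 on the sham arrays and 2.95, 3.62, 3.97 and 4.08 on the untreated arrays, and no arrays overlapped. It fell (-2.40 ± 0.37, adjusted p = 0.000356). Pvalb, the calcium buffer of fast fibres, fell (-1.52 ± 0.30), as did the fast myosin gene Myh4 (-1.31 ± 0.35), with adjusted p = 0.00163 and 0.00929. Of 13 measured smooth muscle genes 5 fell and 0 rose, among them Myh11 (-1.92 ± 0.41) and Lmod1 (-2.22 ± 0.51), with adjusted p = 0.00234 and 0.00385.

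Genes of injured, stretched or denervated muscle moved in both directions, with more rises than falls. Of 24 measured genes of muscle regeneration and denervation 8 rose (5 without sham replicate 1) and 3 fell. Ankrd1, a stretch-response protein of muscle, stood at -7.31, -2.97, -6.64 and -6.46 on the sham arrays and -0.26, -1.84, 3.29 and 1.12 on the untreated arrays, and sham replicate 2 again lay highest among the sham arrays. It rose by 6.42 ± 1.00 (adjusted p = 0.000382). Runx1, induced in denervated muscle and also a leukocyte factor, rose by 2.37 ± 0.42, and Tnnt2, the troponin T of embryonic muscle, by 2.39 ± 0.54 (adjusted p = 0.000712 and 0.00343). The 3 falls were Chrne, the receptor subunit of the adult nerve endplate, Actc1 and Myh8, and none of the 3 was called in the fit of the 2 groups alone. Actc1 (-1.26) and Myh8 (-0.59) were also not called without untreated replicate 1 (-1.04 and -0.38) or 3 (-0.92 and -0.53), and Myh8 not without sham replicate 1 (-0.53), 3 (-0.56) or 4 (-0.59). There were 5 falls without sham replicate 2 or without untreated replicate 4, and 1 without untreated replicate 1 or 3. Of 22 measured genes of muscle protein breakdown and metabolism 9 fell and 2 rose, with 5 falls without untreated replicate 1 and 4 in the fit of the 2 groups alone, where 0 rose. The 2 rises were lost without sham replicate 3 or untreated replicate 3, and 1 was left without any other single array but untreated replicate 4. Ostn, the muscle-secreted peptide musclin, stood at -3.71, -4.19, -3.97 and -3.05 on the sham arrays and -8.14, -5.78, -6.67 and -6.42 on the untreated arrays and fell (-3.02 ± 0.54, adjusted p = 0.000834), as did Ppargc1b, a co-activator of mitochondrial genes (-1.39 ± 0.26, adjusted p = 0.00109).

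Genes of fat use in mitochondria were among the falls. Of 27 measured genes of fatty acid oxidation and ketone use 15 fell and 0 rose (median -0.62), 8 of them in the fit of the 2 groups alone. Bbox1, which makes carnitine, was at least 2.7-fold lower (adjusted p = 0.000181), at -3.55, -5.63, -3.98 and -4.72 on the sham arrays and -7.64, -7.58, -8.14 and -7.44 on the untreated arrays. Acsl1, which activates fatty acids, stood at 3.63, 3.33, 3.81 and 4.46 on the sham arrays and 2.20, 3.23, 1.99 and 2.59 on the untreated arrays and fell (-1.31 ± 0.26, adjusted p = 0.00165). Acadvl, the very long chain dehydrogenase, fell (-0.81 ± 0.17), as did the carnitine transferase gene Cpt2 (-0.86 ± 0.18), with adjusted p = 0.00221 and 0.0022, the latter not in the fit of the 2 groups alone without sham replicate 2. Of 28 measured genes of oxidative phosphorylation 14 fell and 0 rose. This count depended on the arrays, with 4 without sham replicate 1 and 4 without untreated replicate 1, 8 without sham replicate 3, 9 without sham replicate 4, 21 without sham replicate 2 and 3 in the fit of the 2 groups alone.

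Of 29 measured genes of glycolysis and hypoxia 6 rose and 5 fell, near the shares of all genes (14.9% and 17.9%), with 3 rises and 2 falls in the fit of the 2 groups alone, and 3 falls without untreated replicate 1. Hif1a, the oxygen-regulated transcription factor, stood at -4.49, -2.93, -4.45 and -4.78 on the sham arrays and -1.42, -2.30, -1.60 and -2.23 on the untreated arrays and rose by 2.27 ± 0.38 (adjusted p = 0.000581). Egln3, one of the enzymes that mark its protein for degradation, fell (-2.15 ± 0.39, adjusted p = 0.000847). Slc16a3, a lactate exporter, rose by 1.95 ± 0.42 and Adm, the peptide adrenomedullin, by 1.97 ± 0.45 (adjusted p = 0.00268 and 0.00397), and neither was called in the fit of the 2 groups alone without sham replicate 2.

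Among genes of the unfolded protein response 6 of 26 measured rose and 1 fell, and 3 rose and 0 fell in the fit of the 2 groups alone. Of all genes 14.9% rose and 17.9% fell, and the counts of this paragraph are to be read beside these shares. Sdf2l1, a chaperone partner of the endoplasmic reticulum, rose by 1.49 ± 0.24, and Asns, asparagine synthetase, by 1.65 ± 0.34 (adjusted p = 0.000406 and 0.00192). Chac1, a glutathione-degrading target of the same pathway, fell (-1.06 ± 0.25, adjusted p = 0.00477), which was not called in the fit of the 2 groups alone. Of 17 measured heat shock genes 2 rose and 0 fell, with 4 rises without untreated replicate 2, and Hsp90aa1, at 0.49 ± 0.17 (adjusted p = 0.0328), was called neither without any one of sham replicates 2, 3 and 4 or untreated replicates 1, 3 and 4 nor in the fit of the 2 groups alone. Of 29 measured cell cycle genes 8 rose and 0 fell, 2 of them in the fit of the 2 groups alone, 1 without sham replicate 1, 3 without sham replicate 3, 4 without sham replicate 4, 5 without untreated replicate 2 and 2 without untreated replicate 4.

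Of 17 measured genes of the circadian clock 2 rose and 4 fell, beside 14.9% and 17.9% of all genes. The falls numbered 7 without untreated replicate 3 and 2 in the fit of the 2 groups alone. The rises were of Per2, by 1.20 ± 0.25, and Nfil3, by 2.12 ± 0.46 (adjusted p = 0.00222 and 0.0027), and among the falls were Clock (-0.90 ± 0.20) and Nr1d1 (-1.77 ± 0.43), with adjusted p = 0.00272 and 0.00543. The labels give no hour of tissue collection. Nr1d1 stood at -0.41, -2.10, -0.45 and -1.36 on the sham arrays and -2.80, -2.14, -2.94 and -3.50 on the untreated arrays, and sham replicate 2 was level with untreated replicate 2. Nfil3 was not called in the fit of the 2 groups alone without sham replicate 2.

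The falls with the lowest moderated t statistic included genes of muscle and of epithelium. Mss51, a mitochondrial regulator of fast muscle, stood at 1.44, -0.22, 0.98 and 0.30 on the sham arrays and -4.33, -2.57, -3.84 and -2.11 on the untreated arrays, and fell (-3.84 ± 0.44, adjusted p = 0.000158). Ucp3, the mitochondrial uncoupling protein of skeletal muscle, stood at -0.79, -0.33, 0.07 and 0.92 on the sham arrays and -2.65, -1.88, -2.29 and -1.78 on the untreated arrays and fell (-2.12 ± 0.29, adjusted p = 0.000201). Muc15, a membrane mucin, stood at -2.25, -3.05, -2.96 and -3.78 on the sham arrays and -5.76, -4.70, -7.14 and -6.06 on the untreated arrays, where 2 of the 4 untreated arrays were not well above background, and fell (-2.91 ± 0.40, adjusted p = 0.000211). No sham array overlapped an untreated array in these genes, and untreated replicate 2 was the highest of its group in Muc15.

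Ugt8, which makes galactosylceramide for myelin, fell (-2.73 ± 0.34), as did Slc15a1, an intestinal peptide transporter (-2.52 ± 0.36), and Ppp1r12b, a myosin phosphatase subunit of muscle (-1.99 ± 0.29). Bach2, a transcriptional repressor of lymphocytes, stood at -1.46, -1.47, -1.55 and -1.60 on the sham arrays and -2.94, -2.42, -3.35 and -3.05 on the untreated arrays, with a spread under 1 log2 unit within each group, and fell (-1.42 ± 0.18). The DNA polymerase beta gene Polb fell (-1.26 ± 0.17), as did Ripk2, the kinase that relays NOD receptors (-1.39 ± 0.20), and Pim3, a survival kinase (-1.22 ± 0.19). Fyco1, a transport adaptor of autophagosomes, fell (-1.20 ± 0.18), as did Klhl8 (-1.77 ± 0.27), Fhip1a (-1.72 ± 0.26) and Spmip6 (-1.17 ± 0.17). The adjusted p of these 11 genes lay between 0.000181 and 0.000356.

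The arrays of a group differed in how far they stood from the other group. For each array the fit was repeated without it, and its values for the genes called with a difference of at least 2-fold were placed on a scale where 0 is the mean of the other sham arrays and 1 the mean of the other untreated arrays. The median place among rises was 0.368 for sham replicate 2 and 0.199 for sham replicate 4, against -0.312 and -0.139 for sham replicates 1 and 3. It was 0.620 for untreated replicate 2 and 0.862, 1.05 and 1.22 for untreated replicates 4, 3 and 1. Among falls sham replicates 2 and 4 lay at 0.356 and 0.373, and untreated replicate 2 at 0.457 and untreated replicate 3 at 1.40. Untreated replicate 2 was the lowest of its group in both directions, and sham replicates 2 and 4 were the highest of theirs.

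**Figure D5:**
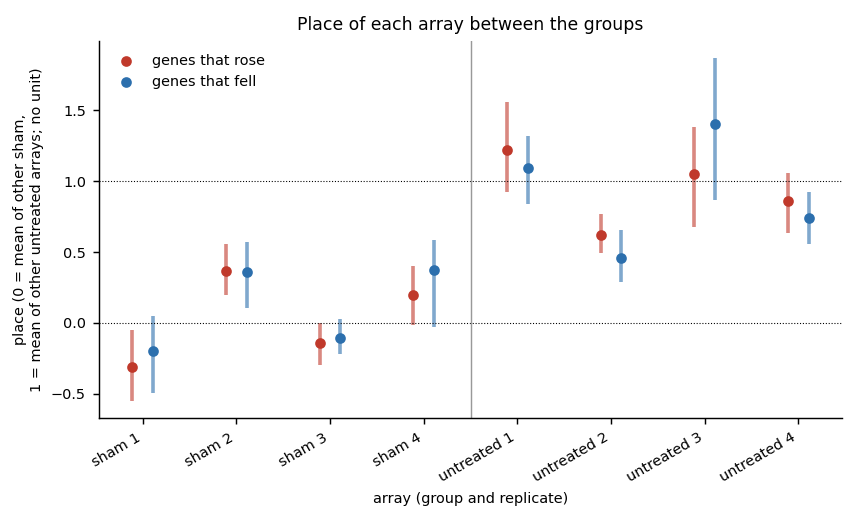
Place of each of the 8 arrays (x axis) between the mean of the sham arrays (0) and the mean of the untreated arrays (1) on the y axis, without a unit, as the median (point) and the quartiles (bar) over the genes that rose (red) or fell (blue) at least 2-fold in the fit without that array. Untreated replicate 2, at 0.620 and 0.457, is the lowest of its group, and sham replicates 2 and 4 are the highest of theirs.

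Different probes of a gene gave the same direction in most cases. Of 2288 genes with at least 2 measured probes 1861 had all probes on one side of 0, and of the 830 called genes among them 777 had every probe on the side of the call. In 2 genes, Cpsf6 and Spart, one probe was called higher and another lower, so no direction is given for them. Fas, the death receptor gene, rose by 1.28 ± 0.23 (adjusted p = 0.000825) at its brightest probe but was not called when its probes were averaged or with normexp background correction. Of 20 measured genes of apoptosis and necroptosis 11 rose (7 without untreated replicate 1 and 7 in the fit of the 2 groups alone) and 1, Bcl2, fell, though not in the fit of the 2 groups alone without sham replicate 2. Bcl2a1, a survival gene of neutrophils, stood at -7.25, -4.41, -7.18 and -6.07 on the sham arrays and -0.79, -3.00, -1.88 and -1.83 on the untreated arrays and rose by 4.35 ± 0.64 (adjusted p = 0.000296).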

How the data were processed

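RNA of the whole oesophagus was measured on 1-colour Agilent arrays, 1 per rat. Per the file headers, the deposited scanner files hold spot intensity read with Feature Extraction 10.7.3.1, and the processed intensity is already background-subtracted. The authors also deposited a value table, which is the same intensity as a ratio to a constant of each array (column medians of 1). Its sham and untreated columns matched the scanner arrays, while its columns of low-dose and high-dose STW5 held each other's arrays.

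Here the log2 processed intensity minus each array's 75th percentile was used. Control spots were left out, and of the remaining 58717 spots per array outlier spots were left out and spots of a probe averaged. A probe was kept if 4 or more of the 20 arrays had at least 50% of its spots well above background. Of 16149 such probes the brightest over all arrays stood for each of 13636 genes. Probes were named from the array files and the RefSeq table (18367 by accession, 2492 by symbol, 528 by synonym and 1869 by the file's own name), and 7093 have no name. limma 3.58.1 in R 4.3.3 was fitted over all 5 groups with 19 samples, because low-dose STW5 replicates 1 and 2 differed by less than 1.5 times the spread of repeated spots and were averaged. The labels give 4 animals per group. The p-values measure the spread between animals within groups, pooled over all 5 groups, and do not cover a difference between slides. The number of animals limits the precision, with a median SE of 0.245 log2 units. Where a group was not well above background on any of its 4 arrays the fold is a lower bound, the bright group's mean against, on each dim array, the higher of the lowest signal well above background and the probe's own. The fit was tested on simulated data.

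Named genes were the 15 highest and 15 lowest moderated t statistics with a difference of at least 1, adjusted p under 0.05 and no overlap of groups, up to 4 members of each list by p and those that define it, the 6 largest bounds each way among genes detected in 1 group only, and the 6 largest genes in which sham replicate 2 lay among the untreated arrays. Others were chosen after their values were seen: the promoter genes, Cxcl2, Cxcl3, Cpsf6, Spart, Reg3b, Fas, and small counts named in full. A few genes picked by this rule were left unreported. The members and the gene lists were chosen with earlier results of these data known. Python 3.11.15 with pandas 2.3.3 and matplotlib 3.10.9 made the summaries and plots.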

Additional observations from a re-analysis of the deposited data

Results flagged for a closer look

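In a group of 4 arrays, an array was singled out where its gap to the nearest other divided by the group's range exceeded Dixon's 95% critical value, and this quotient is the value given here. Chance singles out about 1 in 20 groups, and 36 of the 508 tested for 254 of the genes named above met the criterion. The named genes were selected by their values, so nothing is read from this share. Of those below, Mmp13, Cxcl6, S100a9 and Tnn were named because sham replicate 2 lay among the untreated arrays. Reg3b and Cxcl3 were named after their values were seen. Sham replicate 2 was the highest sham array in Mmp13 (0.927), Ctsb (0.921), Reg3b (0.911), Cxcl6 (0.906), S100a9 (0.875), Tnnt2 (0.873), Tnn (0.868), Per2 (0.854) and Cxcl3 (0.846), and the lowest in Tnnt3 (0.875), Actc1 (0.866), Amy1 (0.862), Aqp4 (0.841) and Oas1b (0.831).

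Sham replicate 4 was the highest sham array in Barx1 (0.947), Dusp6 (0.897), Slc16a3 (0.867) and Ptger3 (0.863) and the lowest in Ptges (0.854) and Krt4 (0.849). Sham replicate 1 was the highest in Nox1 (0.857), Aoah (0.835) and Il36b (0.831) and the lowest in Col1a1 (0.975), Bcl2 (0.896) and Il6r (0.846). Sham replicate 3 was the highest in Dhcr7 (0.977) and Cpt2 (0.916).

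Among the untreated arrays, replicate 1 was the highest in Hgf (0.890) and the lowest in Tnnt3 (0.939). Replicate 2 was the highest in Prdm1 (0.854) and the lowest in Slc7a2 (0.852). Replicate 3 was the highest in Slc26a9 (0.879) and the lowest in Ptger3 (0.906) and Cidea (0.899), and replicate 4 the highest in Dkk2 (0.861). What set these arrays apart was not tested.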

How the results depend on the processing

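The counts of 2036 rises and 2446 falls moved by over 1.5 times in 2 settings. These were the fit of the 2 groups alone (1218 and 1048) and, chosen after seeing the data, the same without sham replicate 2 (1263 and 987). Both took the spread from fewer samples, and from sham and untreated arrays alone. Distances between arrays of a group, as defined above, were 4.64 to 9.17 in sham and 4.54 to 8.86 in untreated. In high-dose STW5 they were 2.625 to 5.33, in omeprazole 2.96 to 7.42, and in low-dose STW5, without the averaged pair, 4.46 to 8.53. How much of the change came from sample number and how much from spread was not tested. Leaving out each of the 8 arrays in turn gave 1610 to 2123 rises and 1741 to 2556 falls. The other settings gave 1712 to 2540 rises and 2311 to 3212 falls: 20 arrays as 20 samples, array weights, normexp, quantile or median scaling, the deposited value table, other filters on dim probes, dim signals raised to the background level, the mean of a gene's probes, a trended robust fit, and, chosen after seeing the data, leaving out both arrays numbered 2. With the replicate number as a block the counts were 2064 and 2533. Same-numbered sham and untreated arrays deviated from their group means with correlations of -0.11, -0.12, -0.12 and 0.13. No label says that a replicate number marks a shared litter or day, and these correlations cannot decide it. Of the called genes named above none changed sign in these 23 settings. Of the uncalled ones Barx1 was 0.17 with array weights and -1.21 to 0.12 with each array left out in turn, Tff1 0.88 and -2.13 to 0.65, Gkn1 2.30 and -1.81 to 1.62, Gkn2 0.93 and -2.36 to 0.87, and Col3a1 -0.052 and -0.11 to 0.38, while Pgc was -0.36 to 1.14 with each array left out. With normexp 86 called differences moved by over 1.5 times, since its offset shrinks the differences of dim probes by construction, so signal over background limits the size of a fold there.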

Other observations

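Of 25 measured genes of Wnt and Notch signalling 2 rose and 6 fell, beside 14.9% and 17.9% of all genes. The rises were of the secreted Wnt inhibitors Sfrp1 (0.83 ± 0.23) and Sfrp2 (1.19 ± 0.38). The falls were of Wnt10a (-0.97 ± 0.27) and Wnt11 (-0.69 ± 0.20), both ligands, and of Wnt4, Dkk2, Jag2 and Axin2. Falls numbered 3 without sham replicate 2, 2 without sham replicate 3, 1 without untreated replicate 1, 3 without untreated replicate 3 and 2 in the fit of the 2 groups alone, which gave 0 rises. Of the 2 rises 1 was called without sham replicate 1 or 3 or untreated replicate 1, and 4 genes rose without untreated replicate 3. Of 19 measured genes of ribosome biogenesis 1, Utp4, rose (0.43 ± 0.16), and it was called neither in the fit of the 2 groups alone nor without any single array other than sham replicate 2 (0.34 to 0.48).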
